A study of Mus musculus with 24 samples.

Results

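Fragments of mouse ileum were cultured for 8 h with an extract in the form CME(-) or CME(+), and gene expression under the 2 forms was compared over extracts of wild-type (WT) and of Asbt-/- donors together. The comparison uses every library titled CME(-) or CME(+) that the submitters kept, 14 of 24 in the series. These are 7 with CME(-), 4 from WT and 3 from Asbt-/- donors, against 7 with CME(+), 3 from WT and 4 from Asbt-/- donors. Asbt-/- CME(-) replicate 3 and WT CME(+) replicate 2 were left out because the labels mark them as removed for poor mapping. In every group the treated tissue was wild-type ileum, from male mice of the strain C57BL/6J after 4 h of starvation, and their age was not stated. The genotype in a group name belongs to the donor of the extract. Asbt, the product of Slc10a2, is the carrier that takes bile acids up from the ileal lumen.

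The treatment text of the labels speaks of extracts with or without bile acid depletion, and CME is not spelled out. In the treatment label of 1 of the 14 libraries, Asbt-/- CME(-) replicate 2, and of both libraries left out, CAM is written where CME would stand. The groups were taken from the titles. CME(+) was taken as the depleted form, since labels of replicates 2 to 4 state 200 µM for CME(-) alone among the extracts. Replicate 1 of each group carries one column prefix and replicates 2 to 4 another, called here the first and the second run. Replicates 2 to 4 of each donor genotype share numbered extract donors across the forms, which leaves 6 pairs of libraries with the same donor genotype and replicate number, 4 of them of a named donor and 2 from the first run without a named donor. The labels do not say that fragments came from separate animals, so p-values reflect spread among these libraries and this spread may be technical. The solvent DMSO, at 0.6% (3 second-run libraries), and tCDCA, the taurine conjugate of chenodeoxycholic acid (4 libraries, 200 µM in the 3 of the second run), give the background levels.

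Bile acids are made in the liver, conjugated, released into the gut and taken back in the ileum, where Asbt carries them into the enterocyte, the ileal bile acid binding protein Fabp6 holds them in the cytosol and the Slc51a-Slc51b carrier exports them to the blood. Inside the cell they bind FXR, a nuclear receptor encoded by Nr1h4. One of its best known targets in this tissue is Fgf15, a hormone gene whose product travels to the liver and holds back bile acid synthesis. FXR activity is also known to lower Asbt expression in the mouse ileum. The series asks how endogenous bile acids regulate genes, and extracts with and without depletion of bile acids address that question.

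Between CME(-) and CME(+), 193 of 12590 genes tested (1.53%) were called at an adjusted p under 0.05 in edgeR's quasi-likelihood test with terms for donor genotype and run, with 80 genes (0.635%) higher and 113 (0.898%) lower with CME(-). Most differences were small: 70 of the 193 reached 1.5-fold and 12 reached 2-fold, and the median log2 change was 0.54 for the genes called higher and -0.50 for those called lower. For 15 of the 193 the 7 CME(-) and 7 CME(+) libraries did not overlap (0.159% of all genes). Within the second run alone, the 5 and 5 libraries did not overlap for 108 of the 193 (3.21% of all genes). All 193 had the same sign in both donor genotypes, which their choice by the pooled test on the same libraries favours. At an unadjusted p under 0.05, 749 genes (5.95%) were higher and 787 (6.25%) lower. The split between higher and lower depends on scaling. With library totals alone, 30 genes were called higher and 838 lower and the median over all genes moved to -0.18 from 0.01.

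Blocking by the 6 pairs of donor genotype and replicate number left 106 genes called (0.858% of 12350 tested). Of these, 89 were shared with the 193. WT CME(-) replicate 2 and Asbt-/- CME(+) replicate 3, which lack a used partner, are not in this fit. Without the run term 1 gene was called. Among the CME(-) libraries 3 stood apart from the rest on the first 3 principal components, which held 12.4, 10.1 and 9.6% of the variance: WT replicate 4 and Asbt-/- replicates 2 and 4. With these libraries left out, a choice made after seeing the data, 44 genes were called, 41 of them among the 193, and all 193 kept their sign. Leaving out 1 library at a time moved the count to 120 without Asbt-/- CME(-) replicate 4, to 107 without WT CME(+) replicate 3 and to 114 without Asbt-/- CME(+) replicate 3. Gene groups with called members are also given without the 3 CME(-) libraries that stand apart. That fit keeps only WT replicates 1 to 3 and Asbt-/- replicate 1 with CME(-), against all 7 libraries with CME(+). A call can be lost there through the smaller number of libraries alone, and this was not tested.

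The ileal hormone gene Fgf15 (ENSMUSG00000031073) rose with CME(-), and its libraries did not overlap between the forms. It stood at 312, 175, 126 and 105 CPM (counts relative to the library total after TMM scaling) in the 4 WT CME(-) libraries, replicates 1 to 4, and at 318, 329 and 216 CPM in Asbt-/- CME(-) replicates 1, 2 and 4. With CME(+) it was at 75.9, 40.3 and 77.8 CPM in WT replicates 1, 3 and 4, and at 59.0, 48.3, 74.1 and 83.3 CPM in Asbt-/- replicates 1 to 4. The lowest CME(-) library thus lay above the highest CME(+) library, in both runs and for both donors. The increase was 1.77 ± 0.26 log2 units (SE, n = 7 and 7), 3.42-fold, with a 95% interval from 1.19 to 2.36 and an edgeR adjusted p of 0.0102, and CME(-) was higher in 6 of 6 pairs.

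DMSO libraries had 5.94 to 7.95 CPM of Fgf15, below every extract library of either form, and tCDCA libraries 174 to 272 CPM. CME(+) libraries therefore lay between the solvent and CME(-). The log2 difference was 1.47 ± 0.37 for WT extracts and 2.07 ± 0.36 for Asbt-/- extracts, and the difference between donors, 0.60 ± 0.50, did not pass the test (edgeR adjusted p = 0.976). With the pair as a block the difference was 1.81 and no longer called (edgeR adjusted p = 0.118), and in the second run alone it was 1.62 with an adjusted p of 0.0505. The first-run pairs, 1 library each and so without a test, gave 2.03 for WT and 2.41 for Asbt-/-. The difference was 1.72 without the 3 CME(-) libraries that stand apart, with an edgeR adjusted p of 0.107.

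**Figure D1:**
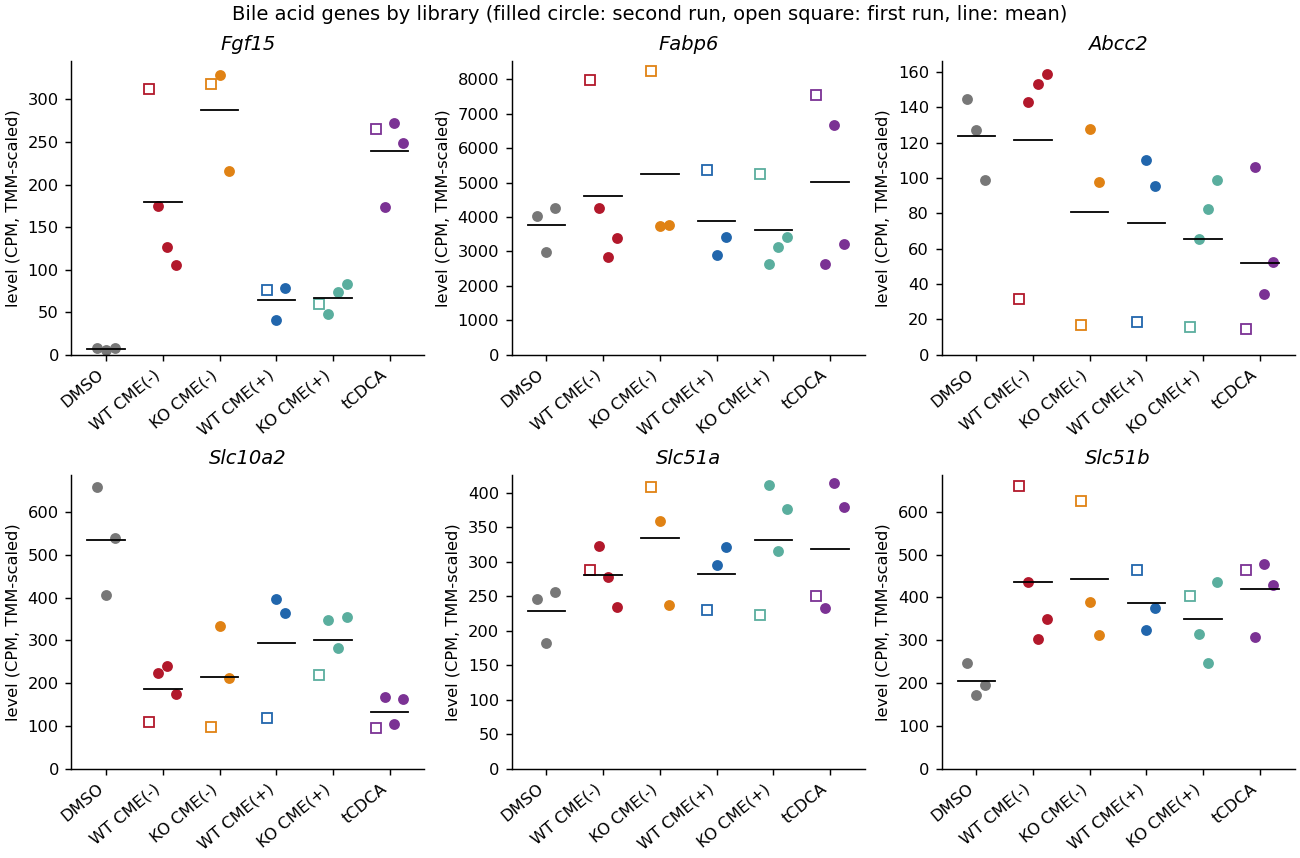
Levels of 6 bile acid genes by library, in CPM after TMM scaling (y axis), for the 6 groups (x axis, KO is Asbt-/-); filled circles are second-run libraries, open squares first-run libraries and lines group means. Fgf15 lies at 105 to 329 CPM with CME(-), at 40.3 to 83.3 CPM with CME(+) and at 5.94 to 7.95 CPM with DMSO, while Slc51a and Slc51b overlap between the forms.

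The uptake carrier gene Slc10a2 (ENSMUSG00000023073) was at 96.6, 212 and 333 CPM (lowest, median, highest of 7) with CME(-) and at 119, 347 and 397 CPM with CME(+). The forms overlapped, and CME(-) was the lower one in 6 of 6 pairs. The difference was -0.57 ± 0.15 log2 units and missed the threshold (edgeR adjusted p = 0.0671). It passed with the pair as a block (-0.64, adjusted p = 0.0228). All extract libraries lay below the DMSO range of 405 to 658 CPM, and in the second run tCDCA lowered the gene by 1.89 log2 units against DMSO (edgeR adjusted p = 0.0011).

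Fabp6 was at 2840, 3770 and 8250 CPM (lowest, median, highest) with CME(-) and at 2630, 3420 and 5360 CPM with CME(+), with the highest values in the first run. The forms overlapped in the second run, and the gene was called at 0.34 ± 0.09 log2 units (edgeR adjusted p = 0.0435). The call was lost under the pair block (adjusted p = 0.187) and kept in 4 of the 14 fits that left out 1 library. CME(-) was higher in 4 of 6 pairs, and the second run alone gave 0.24 (adjusted p = 0.319). In the second run tCDCA gave 0.13 log2 units against DMSO for Fabp6, which did not pass (edgeR adjusted p = 0.903).

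Abcc2, which encodes an apical export pump for conjugates, was at 16.8, 128 and 159 CPM with CME(-) and at 15.5, 82.2 and 110 CPM with CME(+). First-run libraries were all at the low end, at 15.5 to 31.6 CPM, and within the second run the forms overlapped only at their edges. Abcc2 rose by 0.50 ± 0.11 log2 units (edgeR adjusted p = 0.0104), and it stayed called under the pair block (adjusted p = 0.0379). In the second run tCDCA gave -0.95 log2 units against DMSO for this gene, which did not pass the test (adjusted p = 0.211).

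The subunits of the basolateral export carrier were not called. Slc51a was at 235 to 409 CPM with CME(-) and 223 to 411 CPM with CME(+), a difference of 0.03 ± 0.14 log2 units (95% interval -0.27 to 0.33). Slc51b was at 302 to 661 CPM and 246 to 465 CPM, a difference of 0.22 ± 0.12. Against DMSO in the second run, tCDCA raised Slc51b by 0.97 log2 units (edgeR adjusted p = 0.0383). For Slc51a it gave 0.57, which did not pass (edgeR adjusted p = 0.292). The receptor gene Nr1h4 was at 16.9 to 30.1 CPM with CME(-) and 23.1 to 40.6 CPM with CME(+), with an edgeR adjusted p of 0.141. Nr0b2, an FXR target and corepressor of the liver, was too low to test, at up to 1.45 CPM in any extract library.

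Of the 10 tested members of an FXR target list of 15, 3 rose (Fgf15, Abcc2, Fabp6) and none fell. Over all 12590 genes 0.635% were called higher. The median log2 change of the list was 0.25, against 0.01 over all genes. 0 of the 10 were called without the 3 CME(-) libraries that stand apart, and with the pair block 1 was higher (Abcc2) and 1 lower (Slc10a2). Of 13 tested bile acid carriers, receptors and conjugating enzymes 2 rose, the same Abcc2 and Fabp6, and the median was 0.08. Neither was called without the 3 libraries, and the pair block gave Abcc2 higher and Slc10a2 lower here too.

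Among the 12 called genes with the largest increase at a mean log2 CPM of at least 3, Foxp2, a forkhead transcription factor, was at 5.49, 8.99 and 16.3 CPM (lowest, median, highest) with CME(-) and at 1.61, 3.27 and 12.9 CPM with CME(+). The forms were separate in the second run and overlapped in the first, and Foxp2 rose by 1.11 ± 0.30 log2 units (edgeR adjusted p = 0.0475), with 1.71 in the second run alone and 0.48 and -0.17 in the first-run pairs. Tnfsf15, a cytokine of the TNF family, was at 5.40 to 28.1 CPM against 3.15 to 12.5 CPM and rose by 0.99 ± 0.24. Habp2, a hyaluronan-binding serine protease, was at 10.8 to 19.7 CPM against 3.89 to 13.8 CPM and rose by 0.95 ± 0.24. Rnf139, a ubiquitin ligase of the endoplasmic reticulum, rose by 0.96 ± 0.24. The kinetochore scaffold gene Knl1 rose by 0.92 ± 0.23, the cyclin-dependent kinase gene Cdk7 by 0.82 ± 0.22, the mitochondrial thioesterase gene Acot2 by 0.81 ± 0.20 and the chromatin remodeller gene Arid2 by 0.74 ± 0.19.

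The other 3 of these 12 belong to the actin cytoskeleton or to muscle. Ppp1r12b, a targeting subunit of myosin phosphatase, was at 13.3, 23.9 and 38.8 CPM with CME(-) and 4.88, 14.1 and 22.6 CPM with CME(+), and rose by 0.94 ± 0.19 log2 units (edgeR adjusted p = 0.00431). Pgm5, a phosphoglucomutase-like protein of muscle adhesion sites, was at 46.9, 83.4 and 101 CPM against 32.4, 43.2 and 56.4 CPM, and rose by 0.80 ± 0.12 (adjusted p = 0.000375). Ppp1r9a, an actin-binding scaffold, rose by 0.87 ± 0.22. Ppp1r12b, Pgm5 and Fgf15 kept their call in all 14 fits that left out 1 library, while the other 9 kept it in 2 to 8 of 14. Ppp1r12b, Pgm5 and Habp2 were called under the pair block, and the other 9 were not, with Fgf15 among them at an adjusted p of 0.118 and the rest at 0.064 to 0.154. The second run alone kept Foxp2, Ppp1r12b, Acot2, Pgm5 and Arid2, and the fit without the 3 CME(-) libraries that stand apart kept Ppp1r12b, Ppp1r9a and Pgm5.

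Of the 12 called genes with the largest decrease at a mean log2 CPM of at least 3, Tmem238 and Cdc42ep2 had no overlap between the forms. Such a separation held for 0.159% of all genes. Cdc42ep2, an effector of the GTPase Cdc42, was at 11.1, 21.2 and 28.1 CPM (lowest, median, highest) with CME(-) and at 31.3, 35.6 and 47.3 CPM with CME(+), against 40.3 to 47.6 CPM with DMSO. Every CME(-) library lay below every CME(+) library. It fell by 0.90 ± 0.15 log2 units (edgeR adjusted p = 0.00055). Tmem238 was at 6.84, 17.3 and 20.5 CPM against 22.5, 28.2 and 34.3 CPM and fell by 0.93 ± 0.17 (adjusted p = 0.002).

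Slc2a2, the basolateral glucose carrier, was at 1.72, 16.2 and 30.0 CPM with CME(-) and 3.00, 34.6 and 57.7 CPM with CME(+), with all first-run libraries at 6.15 CPM or lower. It fell by 1.03 ± 0.22 log2 units (edgeR adjusted p = 0.0104). Slc23a4, a nucleobase carrier, fell by 1.14 ± 0.28, Slc6a4, the serotonin carrier, by 1.0 ± 0.26 and Acy3, an aminoacylase, by 0.96 ± 0.17. For Slc2a2, Slc23a4 and Acy3 the DMSO ranges, 41.3 to 69.4, 18.0 to 78.7 and 54.6 to 93.4 CPM, reached above the highest CME(+) library.

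Lrg1, which encodes a secreted acute-phase glycoprotein, fell by 0.89 ± 0.15 log2 units with CME(-), from 24.4 to 51.1 CPM with CME(+) to 12.6 to 31.7 CPM, although both forms lay above the DMSO range of 6.64 to 11.6 CPM. The remaining genes were Gml2 (-1.24 ± 0.33), the glycosyltransferase gene B4galnt4 (-0.96 ± 0.20), the potassium channel subunit gene Kcne3 (-0.87 ± 0.23), Car4 (-0.83 ± 0.15) and the aldo-keto reductase gene Akr1e1 (-0.81 ± 0.21). Gml2 was too low to test in the second run alone, at 0 to 1.18 CPM with CME(-) and 1.56 to 2.95 CPM with CME(+). In the first run it was at 14.8 and 15.4 CPM against 31 and 23.2 CPM, WT before Asbt-/-. The call held in all 14 fits that left out 1 library for 7 of the 12 (Slc2a2, B4galnt4, Acy3, Tmem238, Cdc42ep2, Lrg1 and Car4), and in 2 to 6 for the other 5. Under the pair block 6 of the 12 were called, and Gml2, Slc23a4, Slc2a2, Slc6a4, Kcne3 and Akr1e1 were not (edgeR adjusted p = 0.0894 to 0.16). The second run alone kept Acy3, Cdc42ep2, Lrg1, Kcne3 and Car4, and the fit without the 3 CME(-) libraries that stand apart kept Slc2a2, B4galnt4, Acy3, Tmem238 and Cdc42ep2.

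**Figure D2:**
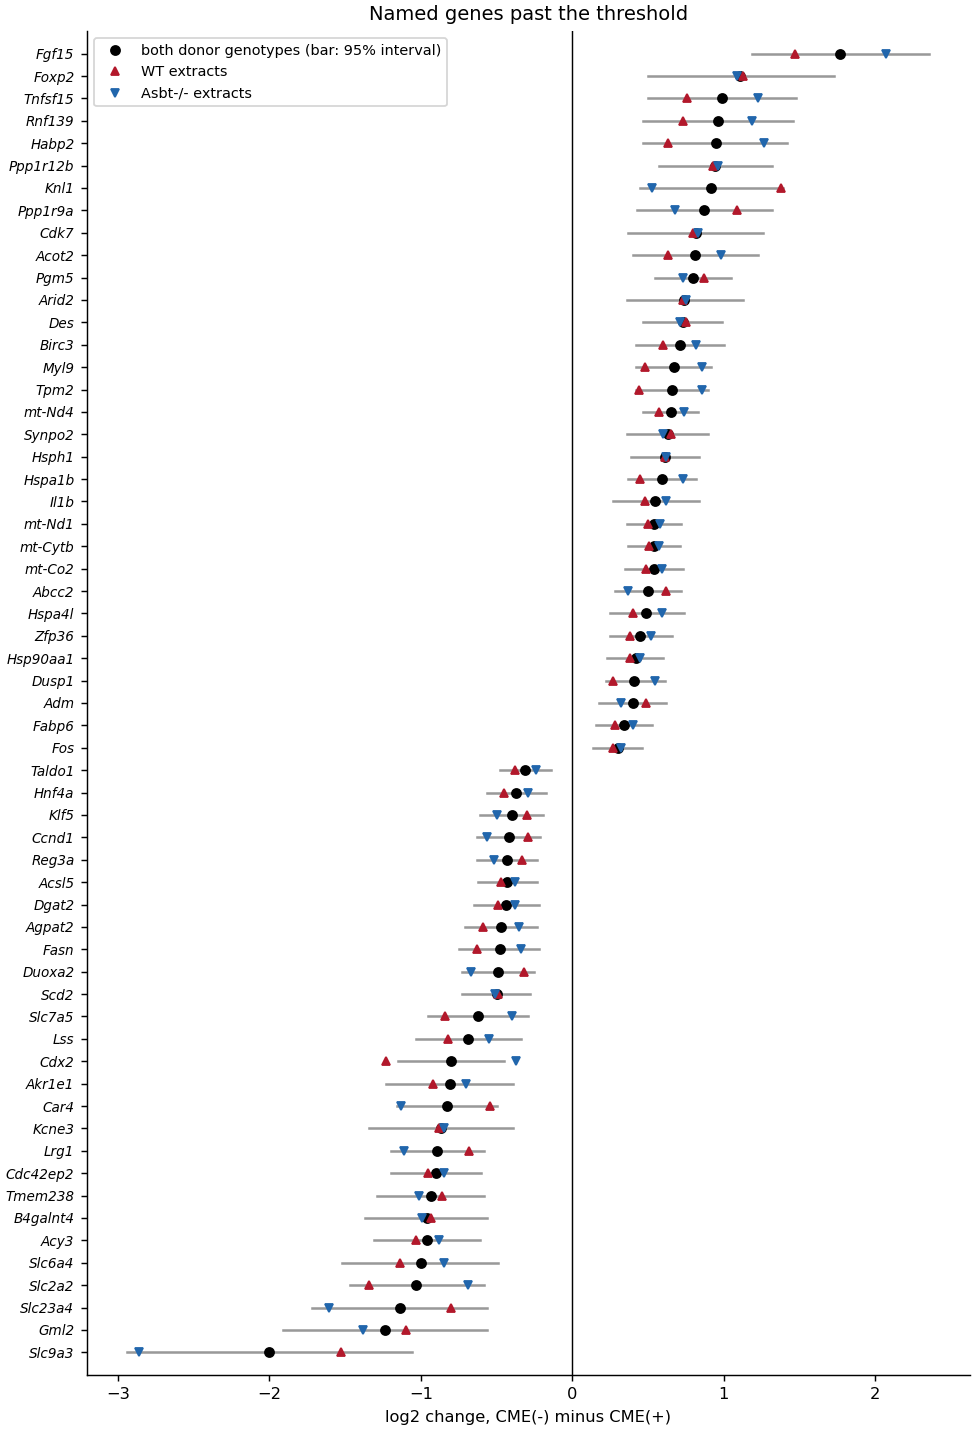
Log2 change of CME(-) over CME(+) (x axis) of the named genes called by edgeR (y axis); black points with bars are the estimates over both donors with 95% intervals, and red and blue triangles the estimates for WT and Asbt-/- extracts alone. Both triangles lie on the same side of 0 for every gene shown, from Fgf15 at 1.77 to Slc9a3 at -2.0. These genes were chosen by the pooled test on the same libraries, which favours a shared sign.

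Genes of contractile smooth muscle, the tissue of the gut wall, were higher with CME(-): 8 of 12 rose (against 0.635% of all genes) and none fell. All 12 had a positive change, and the median was 0.60 against 0.01 over all genes. Desmin (Des), the muscle intermediate filament, was at 54.2, 85.4 and 110 CPM (lowest, median, highest) with CME(-) and at 41.1, 54.2 and 66.5 CPM with CME(+), and it rose by 0.73 ± 0.13 log2 units (edgeR adjusted p = 0.00158). Myl9 (ENSMUSG00000067818), the regulatory myosin light chain, was at 84.9, 123 and 220 CPM against 58.1, 84.0 and 164 CPM, and rose by 0.67 ± 0.12 (adjusted p = 0.00378). The tropomyosin gene Tpm2 rose by 0.66 ± 0.12 and Synpo2, an actin-bundling protein, by 0.63 ± 0.13.

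Single genes overlapped between the forms across runs, but the within-pair order was the same for 10 of the 12 genes in 6 of 6 pairs. The myosin heavy chain gene Myh11 rose by 0.69 ± 0.16 log2 units, smooth muscle actin Acta2 by 0.56 ± 0.12, the enteric actin Actg2 by 0.54 ± 0.12 and the myosin light chain kinase gene Mylk by 0.49 ± 0.10. Tagln (0.56 ± 0.14), Cnn1 (0.71 ± 0.24), Smtn (0.31 ± 0.19) and Lmod1 (0.30 ± 0.23) did not pass. In bulk tissue, fewer cells of a type and less RNA per cell cannot be told apart.

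The summed level of the 12 genes was 1410, 2250 and 2920 CPM (lowest, median, highest) with CME(-), 1340, 1560 and 1640 CPM with CME(+) and 1690 to 2530 CPM with DMSO. With CME(-), 6 of 7 libraries lay above the whole CME(+) range, and the DMSO range lay above it too. The part of this muscle share in the changes of the other gene groups was not tested. Under the pair block 9 of 12 were called, and without the 3 CME(-) libraries that stand apart 0 of 12 were. Myl9 then differed by 0.44 log2 units (edgeR adjusted p = 0.124) and Des by 0.51 (adjusted p = 0.115).

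Many smooth muscle genes carry a CArG box, the binding element of serum response factor, near their start. Its letters were found in the promoter window of 1 of 9 smooth muscle genes with an entry in the RefSeq promoter table (Myl9) and in 1.63% of all 32851 promoters of that table, which span 250 bases before to 50 bases after a start. The 250 bases before the start of Myl9 are shown because it is the called gene of this group with a match. The stretch is chr2:156775214-156775463 on the plus strand of GRCm38.p6, just upstream of the annotated gene, and the capitals mark the CArG box, which begins 161 bases before the start.
Myl9: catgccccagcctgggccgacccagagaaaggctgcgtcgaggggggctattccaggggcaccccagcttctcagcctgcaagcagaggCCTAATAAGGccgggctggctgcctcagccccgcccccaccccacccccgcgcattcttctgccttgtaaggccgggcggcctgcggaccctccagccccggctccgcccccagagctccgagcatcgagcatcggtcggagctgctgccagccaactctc

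Messenger RNAs encoded by the mitochondrial genome, which specify subunits of the respiratory chain and ATP synthase, were mostly higher with CME(-). Of 11 tested, 7 rose (against 0.635% of all genes) and none fell, all 11 changes were positive, and the median was 0.49. The complex I subunit gene mt-Nd4 was at 15200 to 18900 CPM in the second-run CME(-) libraries and at 8000 to 12400 CPM in the second-run CME(+) libraries. In the first run it was at 47500 and 31100 CPM against 32600 and 25500 CPM, WT before Asbt-/-. CME(-) was higher in 6 of 6 pairs, with no overlap in the second run (as for 3.21% of all genes). The gene rose by 0.65 ± 0.09 log2 units (edgeR adjusted p = 8.5e-05).

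The cytochrome b gene mt-Cytb and the complex I gene mt-Nd1 each rose by 0.54 log2 units (SE 0.08 and 0.09), and so did the cytochrome oxidase gene mt-Co2 (0.54 ± 0.09). DMSO libraries held 13500 to 23600 CPM of mt-Nd4 and 12600 to 19800 CPM of mt-Cytb, ranges that overlap those of CME(-) in the second run and lie above those of CME(+) there (up to 12400 and 10800 CPM). mt-Co3 had the largest value of the list, 2.17 ± 0.54, and did not pass (edgeR adjusted p = 0.0971), nor did mt-Nd3, mt-Nd6 and mt-Nd2. Of 21 nuclear genes of oxidative phosphorylation 0 were called by edgeR or DESeq2, 1 was higher and 1 lower at an unadjusted p under 0.05, and the median was 0.01.

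Mitochondrial ribosomal RNA moved with the form too. It held 24.6 to 31.86% of the counts in the second-run CME(-) libraries and 17.57 to 22.03% with CME(+), and 7.95 to 8.29% against 6.78 to 7.15% in the first run. The forms did not overlap within either run. Its part in the changes of other genes was not tested beyond the fit that leaves it out. With this rRNA and the most abundant unnamed identifier removed before scaling, 192 genes were called, and 7 of the 11 mitochondrial mRNAs were among them. Under the pair block 5 of 11 were called, and without the 3 CME(-) libraries that stand apart 6 of 11.

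Heat shock genes encode chaperones that refold proteins after stress. With CME(-) 4 of 18 rose (against 0.635% of all genes) while none fell, with a median of 0.25. Hsph1 (ENSMUSG00000029657), a nucleotide exchange factor for Hsp70, was at 68.2, 113 and 137 CPM (lowest, median, highest) with CME(-), at 52.0, 66.9 and 80.3 CPM with CME(+) and at 59.6 to 81.8 CPM with DMSO. In the second run the forms did not overlap (as for 3.21% of all genes), and Hsph1 rose by 0.61 ± 0.11 log2 units (edgeR adjusted p = 0.00136). Hspa1b, an inducible Hsp70, was at 205, 618 and 936 CPM against 162, 364 and 460 CPM and rose by 0.59 ± 0.11. This gene has a near-identical neighbour, Hspa1a (0.60 ± 0.20, not called), between which reads may have been divided.

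Hsp90aa1 rose by 0.42 ± 0.09 log2 units and Hspa4l by 0.49 ± 0.12. The constitutive chaperone genes Hspa8 (0.14 ± 0.09), Hspd1 (0.14 ± 0.09) and Hsp90ab1 (0.16 ± 0.08) did not pass the test. The 18 genes summed to 2600 to 4850 CPM with CME(-) and 2420 to 3240 CPM with CME(+), higher with CME(-) in 6 of 6 pairs. Under the pair block Hspa4l was not called (edgeR adjusted p = 0.154) while Hspa1a and Hspb1 were, 5 of 18 in all, and without the 3 CME(-) libraries that stand apart 0 of 18.

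Heat shock factor binds repeats of the trinucleotide GAA in alternating orientation. The letters GAANNTTCNNGAA, or TTCNNGAANNTTC on the other strand, stood in the window of 4 of 15 heat shock genes with a RefSeq promoter (Chordc1, Hspd1, Hspe1 and Hsph1) and in 0.603% of all promoters. Of the 3 called genes with a promoter entry only Hsph1 had a match, shown because it had the smallest p of the group: TTCTGGAAAGTTC, all capitals as the whole run matches, 16 or 37 bases after the start for its 2 annotated starts on the minus strand of chromosome 5. Hspd1, Hspe1 and Chordc1 were not called (0.14 ± 0.09, 0.26 ± 0.09 and -0.13 ± 0.16 log2 units).

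Immediate early genes, which respond to stimuli within minutes, were called higher in 3 of 14 cases and lower in none. Over all genes 0.635% were called higher. The list median was 0.30. Zfp36, which promotes decay of cytokine mRNAs, was at 90.2, 102 and 114 CPM (lowest, median, highest) with CME(-) and at 59.8, 72.4 and 90.1 CPM with CME(+). Its libraries did not overlap, and it rose by 0.45 ± 0.10 log2 units (edgeR adjusted p = 0.0141). The phosphatase gene Dusp1 rose by 0.41 ± 0.10 and Fos by 0.30 ± 0.08, and both lost their call under the pair block (adjusted p = 0.0788 and 0.163). DMSO libraries had more Fos, at 366 to 463 CPM, than any extract library. Without the 3 CME(-) libraries that stand apart none of these 3 was called (adjusted p = 0.242, 0.0635 and 0.15 for Zfp36, Dusp1 and Fos) and Ier3, named after its value was seen, was. The count was 1 of 14 without WT CME(-) replicate 3 or Asbt-/- CME(-) replicate 1. Over the 14 fits that left out 1 library, Zfp36 kept its call in 14, Dusp1 in 11 and Fos in 1.

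Of 19 NF-kB and inflammatory genes 2 rose (against 0.635% of all genes), with a median of 0.14. Birc3, an inhibitor of apoptosis, was at 24.5 to 50.6 CPM with CME(-) and 15.1 to 29.0 CPM with CME(+) and rose by 0.71 ± 0.14 log2 units (edgeR adjusted p = 0.00515). The cytokine gene Il1b was at 13.3 to 24.6 CPM against 10.5 to 14.2 CPM among second-run libraries, and first-run libraries had 77.4 to 105 CPM. It rose by 0.55 ± 0.14, and was not called under the pair block (adjusted p = 0.0823). Birc3 alone was called, 1 of 19, without WT CME(-) replicate 1 or 4, Asbt-/- CME(-) replicate 2 or 4, WT CME(+) replicate 3 or 4 or Asbt-/- CME(+) replicate 3 or 4, and 0 of 20 tested without the 3 CME(-) libraries that stand apart.

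**Figure D3:**
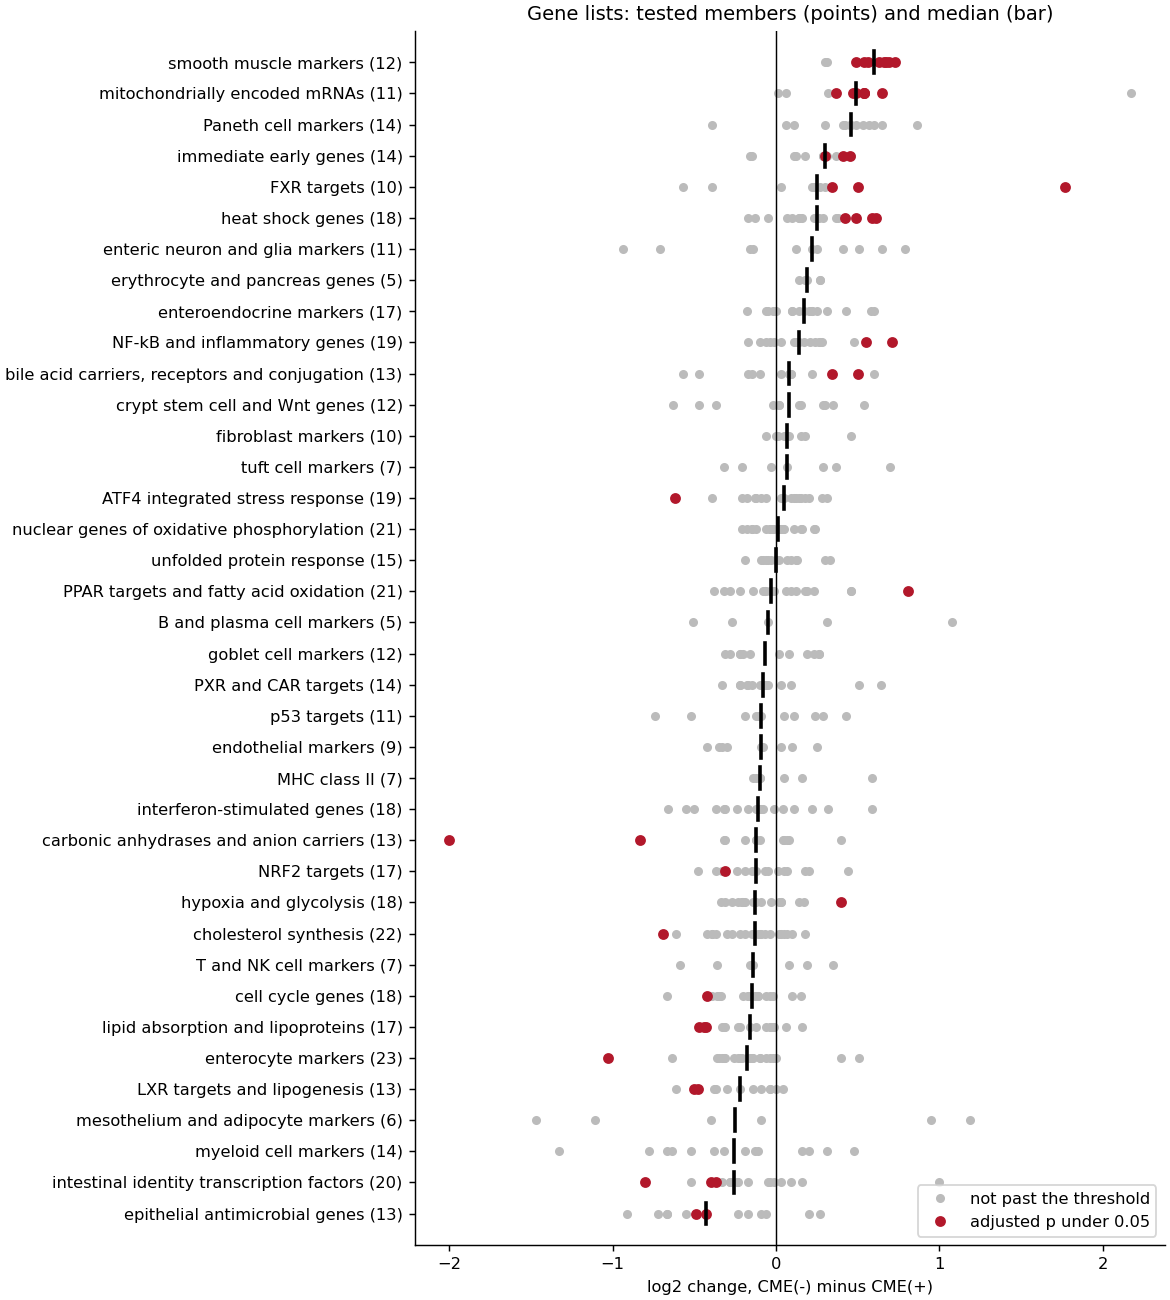
Log2 change of CME(-) over CME(+) (x axis) for the tested members of each gene list (y axis, number tested in brackets); grey points are members that did not pass, red points members called by edgeR, and bars list medians. Smooth muscle genes (median 0.60) and mitochondrial mRNAs (0.49) hold most red points to the right, and intestinal identity transcription factors (-0.26) hold 3 to the left.

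Transcription factors that set intestinal identity were lower with CME(-) where they were called: 3 of 20 fell (against 0.898% of all genes) and none rose. Of the 20 changes 16 were negative, and the median was -0.26. Cdx2 is the homeobox master regulator of the intestine. Among second-run libraries it was at 27.7 to 39.2 CPM with CME(-) and 46.6 to 63.0 CPM with CME(+), without overlap (as for 3.21% of all genes). In the first run it was at 1.29 and 4.69 CPM against 9.97 and 6.37 CPM, WT before Asbt-/-. Cdx2 fell by 0.80 ± 0.17 log2 units (edgeR adjusted p = 0.0104, and 0.0572 under the pair block). Its change was -1.23 ± 0.22 for WT and -0.37 ± 0.22 for Asbt-/- extracts. The difference between donors, 0.86 ± 0.32, did not pass (edgeR adjusted p = 0.97).

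Hnf4a, a nuclear receptor of enterocyte differentiation, was at 229, 298 and 377 CPM (lowest, median, highest) against 326, 363 and 467 CPM and fell by 0.37 ± 0.10 (edgeR adjusted p = 0.0426, and 0.11 under the pair block). Klf5, a factor of crypt cells, was at 441, 509 and 708 CPM against 552, 762 and 909 CPM and fell by 0.40 ± 0.10. With DMSO, Hnf4a was at 294 to 351 CPM and Klf5 at 445 to 531 CPM, nearer to CME(-), whereas Cdx2, at 37.4 to 90.6 CPM, reached from the top of the CME(-) range to above that of CME(+). Cdx2 and Hnf4a were called without the 3 CME(-) libraries that stand apart (-1.11 and -0.47, adjusted p = 0.0101 and 0.0245), and Klf5 was not. Leaving out 1 library gave 1 to 3 of 20. The count was 1 of 20 without WT CME(-) replicate 3 or 4, WT CME(+) replicate 1 or 3, Asbt-/- CME(-) replicate 4 or Asbt-/- CME(+) replicate 3 or 4.

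Of 17 genes of lipid absorption and lipoprotein assembly 3 fell (against 0.898% of all genes) and none rose, with a median of -0.16. All 3 act in the making of triglycerides from absorbed fat. The acyl-CoA synthetase gene Acsl5 was at 204, 251 and 306 CPM (lowest, median, highest) with CME(-) and 241, 329 and 413 CPM with CME(+), and fell by 0.43 ± 0.10 log2 units (edgeR adjusted p = 0.0143). Dgat2, which catalyses the last step, was at 46.1 to 80.7 CPM against 54.9 to 117 CPM and fell by 0.44 ± 0.11. Agpat2, an acyltransferase of an earlier step, fell by 0.47 ± 0.12.

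DMSO libraries held 358 to 444 CPM of Acsl5 and 101 to 126 CPM of Dgat2, at or above the upper part of the CME(+) range. Acsl5 and Dgat2 lost their call under the pair block (adjusted p = 0.11 and 0.124) and Agpat2 kept it (0.0399). The count was 0 of 17 without the 3 CME(-) libraries that stand apart, and 0 of 17 also without WT CME(+) replicate 3 or 4. It was 1 of 17 without Asbt-/- CME(-) replicate 4 or Asbt-/- CME(+) replicate 4. The apolipoprotein genes Apob (-0.04 ± 0.10), Apoa1 (-0.02 ± 0.20) and Apoa4 (-0.33 ± 0.43) were not called.

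Of 13 LXR targets and lipogenic genes 2 fell, the fatty acid synthase gene Fasn (-0.48 ± 0.13), whose libraries did not overlap at 20.2 to 36.5 CPM against 38.6 to 52.8 CPM, and the desaturase gene Scd2 (-0.50 ± 0.11). Of 22 genes of cholesterol synthesis 1 fell, the lanosterol synthase gene Lss, at 10.9 to 18.1 CPM against 18.2 to 29.4 CPM (-0.69 ± 0.17). Over all genes 0.898% were called lower. Fasn and Lss were not called under the pair block (edgeR adjusted p = 0.061 and 0.1). None of the genes of either list was called without the 3 CME(-) libraries that stand apart. For LXR targets the count was 0 of 13 without Asbt-/- CME(-) replicate 2 or 4, 2 without WT CME(-) replicate 2 or 3 or Asbt-/- CME(-) replicate 1, and 1 without any other single library.

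Carbonic anhydrases and anion carriers make and move bicarbonate, and 2 of 13 fell with CME(-), Car4 and Slc9a3 (against 0.898% of all genes). Car4, the membrane-anchored carbonic anhydrase, was, among second-run libraries, at 54.6 to 104 CPM with CME(-) and 107 to 179 CPM with CME(+). The first-run libraries had 296 and 303 CPM against 399 and 514 CPM, WT before Asbt-/-. It was lower with CME(-) in 6 of 6 pairs with no overlap within either run. In the second run 3.21% of all genes had no overlap. Car4 fell by 0.83 ± 0.15 log2 units (edgeR adjusted p = 0.0133). DMSO libraries had 57.2 to 98.6 CPM, close to the range of CME(-) in the same run. Slc9a3, the apical sodium-proton exchanger, was near the limit of detection at 0.195 to 3.24 CPM against 1.61 to 7.98 CPM, and fell by 2.0 ± 0.46 (adjusted p = 0.0167, and 0.11 under the pair block). With the 3 CME(-) libraries that stand apart left out 0 of 13 were called.

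**Figure D4:**
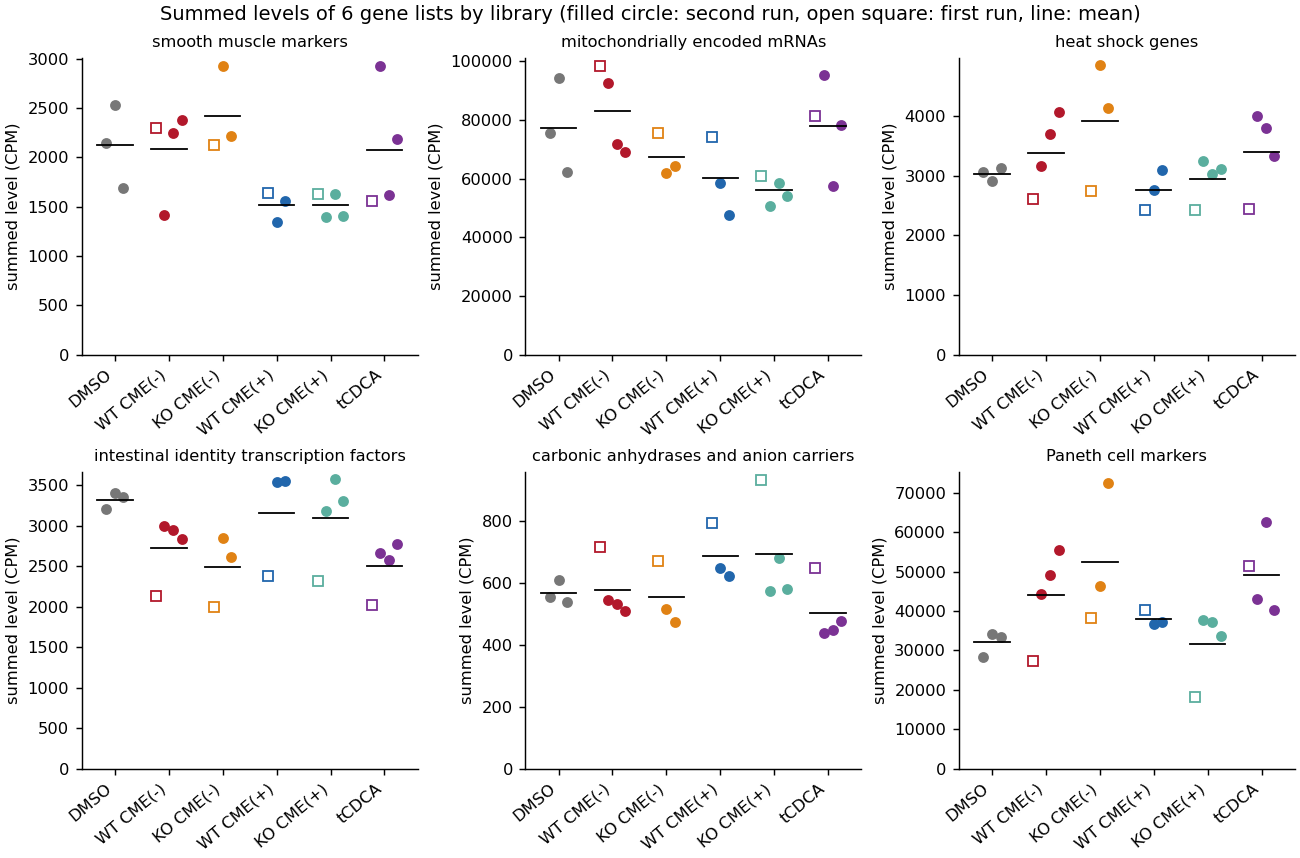
Summed level of 6 gene lists in each library, in CPM after TMM scaling (y axis), by group (x axis, KO is Asbt-/-); filled circles are second-run libraries, open squares first-run libraries and lines group means. Smooth muscle genes sum to 1340 to 1640 CPM with CME(+) and reach 2920 CPM with CME(-), and identity factors are lower in CME(-) than in CME(+) libraries of the same run.

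Among 23 enterocyte markers, which check the labelled tissue, 1 fell (Slc2a2) and none rose, against 0.898% of all genes called lower. The median was -0.18, and 20 of 23 changes were negative. All 23 were tested. Their summed level was 3480 to 9190 CPM with CME(-), 4500 to 9670 CPM with CME(+) and 9120 to 14500 CPM with DMSO, so the extract forms overlapped, and all but 2 of 14 extract libraries lay below the solvent. The brush border sucrase gene Sis (-0.18 ± 0.13) and the aminopeptidase gene Anpep (-0.35 ± 0.15) were not called. Slc2a2 was also the 1 member called without the 3 CME(-) libraries that stand apart, and 0 were called under the pair block.

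Of 13 epithelial antimicrobial genes 2 fell, Duoxa2, the maturation factor of an epithelial oxidase, by 0.49 ± 0.11 log2 units (256 to 1140 CPM against 490 to 1330 CPM, edgeR adjusted p = 0.0258), and the secreted lectin gene Reg3a by 0.43 ± 0.10 (92.8 to 226 CPM against 96.5 to 350 CPM). Over all genes 0.898% were called lower. The list median was -0.43, and Reg3g, of the same family of similar genes, was at -0.72 ± 0.19 with an edgeR adjusted p of 0.12. The count was 0 of 13 without the 3 CME(-) libraries that stand apart, 0 of 13 without Asbt-/- CME(-) replicate 4, and 1 of 13 without WT CME(-) replicate 3, WT CME(+) replicate 4 or Asbt-/- CME(+) replicate 4.

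Paneth cell markers were not called by edgeR over both runs, but 9 of 14 were higher at an unadjusted p under 0.05 (5.95% of all genes), with a median of 0.46, made up of 0.13 for WT and 0.76 for Asbt-/- extracts. Defa26, an alpha-defensin, was at 87.7, 240 and 326 CPM (lowest, median, highest) with CME(-) and 57.5, 139 and 162 CPM with CME(+), a difference of 0.65 ± 0.16 log2 units (edgeR adjusted p = 0.0561). Defa5 was at 60.8, 154 and 239 CPM against 25.8, 92.8 and 115 CPM (0.86 ± 0.23, adjusted p = 0.119). Its change was 0.32 ± 0.20 for WT and 1.4 ± 0.20 for Asbt-/- extracts, a difference of 1.07 ± 0.29 that did not pass (edgeR adjusted p = 0.97). The WT pair of the first run went the other way for both genes, at -0.31 and -0.11. In the second run alone 9 of the 14 were called higher, DESeq2 called 5 over both runs, and without the 3 CME(-) libraries that stand apart 0 were called. Alpha-defensins are a family of near-identical copies whose reads may have been divided.

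Marker lists of other cell types had no member called by edgeR: fibroblast (median 0.07), endothelial (-0.09), enteric neuron and glia (0.22), T and NK cell (-0.14), B and plasma cell (-0.05), myeloid (-0.26), goblet cell (-0.07), enteroendocrine (0.17), tuft cell (0.07), crypt stem cell and Wnt (0.08), mesothelium and adipocyte (-0.25), and erythrocyte and pancreas genes (0.19). At an unadjusted p under 0.05 the goblet and crypt lists each had 2 higher and 2 lower, the myeloid list 1 higher and 2 lower, the enteroendocrine list 1 higher, the B cell list 1 lower and the others 0, and DESeq2 called 1 gene of these lists, in the crypt list. Single calls came from the cell cycle list (Ccnd1, -0.42 ± 0.10), the ATF4 list (the amino acid carrier gene Slc7a5, -0.62 ± 0.16), NRF2 targets (Taldo1, -0.31 ± 0.08), PPAR targets (Acot2) and the hypoxia list (Adm, 0.40 ± 0.11). All of these single calls were lost under the pair block (edgeR adjusted p = 0.0572 for Ccnd1, 0.121 for Slc7a5, 0.118 for Taldo1, 0.0748 for Acot2 and 0.141 for Adm). They were also lost without the 3 CME(-) libraries that stand apart (0.524, 0.318, 0.509, 0.456 and 0.0535 in the same order). None was called in the lists of the unfolded protein response (median 0.00), PXR and CAR targets (-0.08), interferon-stimulated genes (-0.11), MHC class II (-0.10) and p53 targets (-0.09), with 2 higher in the first and 1 lower in the interferon list at an unadjusted p under 0.05 and none called by DESeq2.

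Whether the difference between forms depends on the genotype of the extract donor was tested as an interaction. In edgeR 0 of 12590 genes were called, with 629 (5.00%) at an unadjusted p under 0.05, and DESeq2 called 0, with 646 at that level. The smallest p-values belonged to Mptx2, a pentraxin gene of Paneth cells (0.92 ± 0.21, Asbt-/- minus WT), Tgfbi (0.94 ± 0.23) and Minos1 (0.80 ± 0.20), each with an adjusted p of 0.953. With no filter on low counts 8 were called, among them Mptx2, Defa5 and Defa30, a further alpha-defensin gene. A missed threshold with 3 or 4 libraries per arm does not show that the donors act alike. The 95% interval of the pooled Fgf15 change, 1.19 to 2.36, holds the estimates of both donors. It comes from the same libraries and does not test whether the donors differ.

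A pure bile acid gives a set of genes to read the extracts by. For this, tCDCA was compared with DMSO in the second run, 3 libraries each, which shares no library with the extract comparison. The tCDCA libraries were uneven: mitochondrial rRNA held 5.29% of the counts in replicate 3, against 33.14 and 28.14% in replicates 2 and 4. Of 11013 genes tested 295 (2.68%) were called, 99 higher (0.899%) and 196 lower (1.78%). The genes lower with tCDCA included 12 of 23 enterocyte markers (list median -1.68) and 6 of 17 lipid absorption genes (list median -1.26). Whether regulation by the bile acid or a smaller share of enterocytes underlies these falls was not tested. Of the 98 genes higher with tCDCA that were tested in both, the median extract difference was -0.04, 44 were higher and 54 lower with CME(-), and 8 were called. Of the 195 genes lower with tCDCA the median was -0.15, 146 (74.9%) were also lower with CME(-), 13 were called lower and none higher. Pair by pair, the median of these genes ran from -0.39 to 0.33 over the 6 pairs, so its sign was not the same in all pairs. For the genes higher with tCDCA it ran from -0.37 to 0.44. Over all 10952 genes tested in both the median was 0.00, 5501 were higher and 5451 lower with CME(-), 80 were called higher and 111 lower, and the changes correlated across genes at r = 0.02, where genes are not independent replicates.

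The 5 genes that rose in both comparisons were Fgf15, the peroxisomal thioesterase gene Acot5, the plasminogen activator gene Plat, the small heat shock gene Cryab and the growth factor gene Hbegf. Under the pair block Fgf15, Acot5 and Plat were not called (edgeR adjusted p = 0.118, 0.061 and 0.117). Hbegf was at 237, 260 and 302 CPM (lowest, median, highest) with CME(-) and 140, 203 and 248 CPM with CME(+), and rose by 0.45 ± 0.09 log2 units (edgeR adjusted p = 0.00451). Lrg1, Slc7a5 and Tinagl1 went in opposite directions: tCDCA raised Lrg1 by 1.93 and Slc7a5 by 1.24 log2 units over DMSO, and both fell with CME(-) against CME(+), Slc7a5 without a call under the pair block. Lrg1 with CME(+) lay above the DMSO range although this form was taken as depleted.

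The 13 genes that fell in both included brush border and amino acid transport genes. Myo1a, the myosin of microvilli, was at 269, 326 and 423 CPM (lowest, median, highest) with CME(-) and 434, 551 and 607 CPM with CME(+), without overlap, and fell by 0.59 ± 0.10 log2 units (edgeR adjusted p = 0.000987). Slc7a9, a light subunit of the cystine carrier, was at 85.9, 105 and 112 CPM against 124, 148 and 190 CPM, without overlap, and fell by 0.61 ± 0.10. Slc6a19, the apical neutral amino acid carrier, fell by 0.54 ± 0.13 and was not called under the pair block (adjusted p = 0.16), and Acy3, Acsl5 and Dgat2, described above, were among the 13 as well. Of the 80 genes called higher with CME(-) 5 were called with tCDCA, and of the 113 called lower 16 were, 13 in the same direction.

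**Figure D5:**
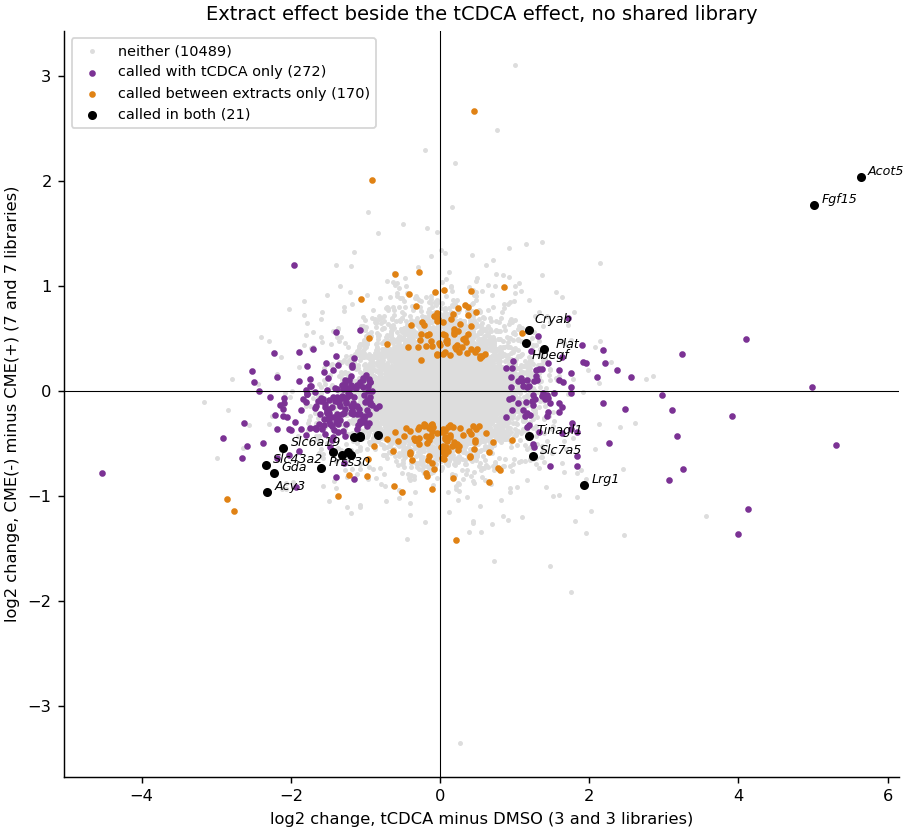
Log2 change of CME(-) over CME(+) (y axis) against that of tCDCA over DMSO in the second run (x axis), 1 point per gene tested in both; colours give where a gene was called, and genes called in both are named where they stand clear of the crowd. Fgf15 and Acot5 lie at the upper right, while most genes called with tCDCA lie close to 0 on the vertical axis (medians -0.04 and -0.15).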

How the data were processed

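The authors deposited a table of whole-number read counts per gene, not normalized, from QuantSeq 3' mRNA libraries made from 100 ng of total RNA per the labels' protocols. FastQC, cutadapt, HISAT2, Picard and the mouse build GRCm39 are named per the submitters' processing notes. How reads were assigned to genes, with which tool, strand setting and annotation, is not given in the sources used here. Symbols came from GENCODE M21, which named 51884 of 57126 identifiers (88.4% of counts). Members of near-identical families (alpha-defensins, Reg3, Hspa1a and Hspa1b) and overlapping or antisense genes are uncertain. The 14 libraries compared held 2.76 to 5.07 M counts each. An unnamed identifier held 3.32 to 18.19% of them, and replicates correlated at r = 0.838 to 0.935 with no pair as alike as sampling noise.

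The test was that of edgeR 4.0.16 in R 4.3.3 (filterByExpr, TMM scaling, robust quasi-likelihood fit, terms for form, donor genotype and run). P-values were two-sided. Adjustment over all genes tested followed Benjamini and Hochberg, and calls were made below 0.05. The common biological coefficient of variation was 0.244. Alternatives were DESeq2 1.42.0, other scaling and filters, a pair block, other sets of libraries and leaving out each library. tCDCA and DMSO were compared in the second run alone. On data simulated for the extract comparison (12590 genes, 200 changed by a log2 of 1), 86.5% of the changed genes were recovered and 7.49% of calls were false. The simulation gave all genes the same dispersion, with no effect of run and no libraries that stand apart. Only well-counted genes were changed, and by more than most of the genes called in the real data. These rates therefore need not hold for the real data.

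Pairs with replicate numbers 2 to 4 come from the same numbered extract donor, per the labels. The deviations of these 4 pairs from a fit of group and run correlated at -0.023 and 0.0104 for WT replicates 3 and 4. For Asbt-/- replicates 2 and 4 they correlated at -0.0764 and -0.0481. With CME(+) libraries of other donors, same genotype and run, the means were -0.0708, -0.0953, -0.0715 and -0.022 in the same order. Deviations within small groups are tied to each other, so values near 0 do not show that pairing is absent.

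The libraries compared, the 38 gene lists and the tests were chosen with earlier results of these data known. The naming rule took 6 bile acid genes (Fgf15, Slc51a, Slc51b, Fabp6, Slc10a2, Nr0b2), in each direction the 12 called genes that moved most (properly named, mean log2 CPM 3 or higher), from each list with a call up to 4 called members by smallest p, the 2 smallest p of lists with 3 or more members at an unadjusted p under 0.05 and none called, and the 3 smallest p of the interaction. The text leaves out some of these, and other genes are members of the lists or were called with tCDCA too.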

Additional observations from a re-analysis of the deposited data

Results flagged for a closer look

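Of 146 combinations of a gene and a form, 7 libraries each, checked for a library far from the others, 1 stood out. Chance alone gives about 1 in 20 of such checks, more than was found. Each set of 7 mixes first-run and second-run libraries, and libraries that share a shift can hide from the check. Dusp1, an immediate early phosphatase gene, was at 149 CPM in WT CME(+) replicate 1, a first-run library, and at 98.8 to 118 CPM in the other 6 CME(+) libraries. This library lies within the CME(-) range of 110 to 185 CPM.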

How the results depend on the processing

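Between CME(-) and CME(+), 193 genes were called. The count was 868 with no scaling factors, 312 with DESeq2, 299 with no filter on low counts, 112 with the removed libraries added, 57 in a fit of all 21 used libraries and 1 without a run term. It was 106 with the replicate block and 44 without the 3 CME(-) libraries that stand apart, an alternative added after seeing the data. Size factors of DESeq2 (202), a filter at 5 CPM (199), no genotype term (189), second-run libraries only (204) and removal of mitochondrial rRNA (192) stayed within 1.5 times. Leaving out 1 library gave 107 to 202. All 193 kept their direction in each of these fits where they were tested, though the fits share most or all libraries. With no scaling factors the called members were 4 of 12 smooth muscle genes, 1 of 10 FXR targets, 0 of 14 immediate early genes in the direction reported, 2 of 18 heat shock genes, 5 of 11 mitochondrial mRNAs and 7 of 20 identity factors. Of 59 called genes named by the rule 26 passed every fit that left out 1 library, 28 the block, 20 the fit of 21 libraries and 0 every alternative.

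For the difference between donors, the count of 0 became 1 with the replicate block and 8 with no filter, and 0 to 1 when 1 library was left out. For tCDCA against DMSO, 295 became 63 with no scaling factors, 517 with no filter, 746 in the fit of all 21 used libraries and 236 with the replicate block. Leaving out 1 library gave 137 to 392. The count was 137 without DMSO replicate 3 or tCDCA replicate 4 and 178 without DMSO replicate 4. It was 392 without tCDCA replicate 3, the library low in mitochondrial rRNA. The median extract change of genes lower with tCDCA moved from -0.15 to -0.52 with no scaling factors. The cause of these changes was not tested. Counts of 2.76 to 5.07 M per library leave genes under about 5 CPM with few reads, and 4 pairs of a named donor limit the blocked fit.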

Other observations

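Cytosolic ribosomal protein genes, a family looked at after its values were seen, leaned toward CME(-). Of 94 tested, 5 were called higher (Rpl31, Rpl35, Rps23, Rpl30 and Rpl3) and none lower, 77 had a positive change, and the median was 0.22, with 0.09 for WT and 0.33 for Asbt-/- extracts. None was called under the pair block or without the 3 CME(-) libraries that stand apart. Solute carrier genes, chosen the same way, had calls in the other direction: of 215 tested, 11 were called lower with CME(-) and none higher. As a family they were more evenly split, with 93 changes positive, 122 negative and a median of -0.07. Over all genes tested, 0.635% were called higher and 0.898% lower. The 11 carry sugars and nucleobases (Slc2a2, Slc23a4), amino acids (Slc7a9, Slc7a5, Slc43a2, Slc6a19), serotonin (Slc6a4), monocarboxylates (Slc16a1, and its relative Slc16a6), protons (Slc9a3) and citrate (Slc25a1). Of these 11, Slc7a9, Slc16a6 and Slc43a2 were called under the pair block, and Slc7a9, Slc16a6, Slc2a2 and Slc6a19 without the 3 libraries. Of 30 histone genes 2 were called higher, Hist1h2bc and Hist1h1c, with a median of 0.20. The pair block kept Hist1h2bc, and the fit without the 3 libraries neither.

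Acot5, a peroxisomal thioesterase gene, was the other gene beside Fgf15 with a large change in both the extracts and with tCDCA. It was at 4.06, 9.61 and 13.9 CPM (lowest, median, highest of 7) with CME(-) and at 0.187, 3.55 and 6.66 CPM with CME(+), and it rose by 2.04 ± 0.44 log2 units (edgeR adjusted p = 0.0142, and 0.061 with the pair block). Among genes at low level, Sumo2 had the largest increase of the called genes with a symbol, 2.66 log2 units.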
